A study of Mus musculus with 8 samples.

Results

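The CHMP genes encode the subunits of ESCRT-III, and 9 of them, Chmp1a, Chmp1b, Chmp2a, Chmp2b, Chmp3, Chmp4b, Chmp5, Chmp6 and Chmp7, were followed here among the 21080 gene symbols measured by RNA-seq in mouse bone marrow-derived macrophages (BMDMs). They were chosen by symbol, each was found once in both tables of the study, and all 9 passed the filter on low values in every comparison. A 10th Chmp symbol, Chmp4c, was covered at 22.2 reads per base or less in each sample and was placed with the ESCRT-III partners. BMDMs came from Nudt21 fl/fl LysM-Cre mice, called Nudt21-cKO, in which Cre under the lysozyme M promoter removes Nudt21 in myeloid cells, and from LysM-Cre littermates, called WT, so the controls carried the Cre as well. All mice had a C57BL/6 background, and their age at harvest is not given in the sources used here. Each genotype was sampled at 0 h, without stimulation, and at 4 h of LPS after IFNγ overnight (IFNγ/LPS), with 2 samples in each of the 4 groups and each sample pooled from 2 mice. The study labels the samples 1 and 2 for WT and 3 and 4 for Nudt21-cKO at both times, and the treatment field reads the same in all 8 samples, so the time in the title is what separates 0 h from 4 h.

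ESCRT-III subunits assemble into filaments on the inside of a membrane neck and constrict it until it is cut, after which the ATPase VPS4 takes the filaments apart. The same machinery forms the vesicles of multivesicular bodies, closes autophagosomes, separates daughter cells, and repairs the plasma membrane and the nuclear envelope. In macrophages it serves the sorting of receptors to lysosomes and the repair of membranes damaged by phagocytosed cargo or by gasdermin pores. Nudt21 encodes the subunit of cleavage factor I that binds UGUA in the pre-mRNA and takes part in the choice of polyadenylation site.

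The labels were checked on Nudt21 first. Its coverage, the mean number of reads over each base of the transcript, was 718 and 641 in the WT samples at 0 h and 158 and 172 in the Nudt21-cKO samples. At 4 h it was 547 and 575 in WT and 142 and 115 in Nudt21-cKO. Both comparisons had lower values in each knockout sample, and the log2 fold change was −2.13 at 0 h and −2.47 at 4 h (limma, Benjamini-Hochberg adjusted p = 0.0355 and 0.0441). Macrophage genes were abundant, and the summed coverage of 8 macrophage markers was 124575 to 134181 at 0 h and 50877 to 65253 at 4 h. Markers of T, B and NK cells summed to at most 13.2 reads per base in a sample and those of erythroid cells to at most 11.6, whereas 8 markers of neutrophils and their precursors summed to 3392 to 9678. Markers of mast cells and basophils summed to at most 9.90, those of stromal cells to 16.4 to 222, and those of dendritic cells to at most 31.5 at 0 h and 267 at 4 h. In bulk RNA, fewer cells of a type and less RNA per cell cannot be told apart.

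The genes differ in the number of UGUA motifs in their annotated 3′UTRs. For each gene 1 transcript of the GENCODE M21 annotation (GRCm38) was read, the lowest-numbered coding one matched to RefSeq. Its 3′UTR ran from 61 bases in Chmp2a to 1789 in Chmp1b. For Chmp3 this transcript ended at 71581579, while the annotated gene ran to 71582609, so its values hold for that transcript alone. Chmp1b had 16 TGTA (UGUA in the RNA) in that stretch and Chmp3 had 14, whereas Chmp1a and Chmp6 had 2 each. Chmp2a had 1, which in its short 3′UTR comes to 16.4 per 1000 bases, the highest density of the 9. Per 1000 bases, Chmp4b held 9.01, Chmp5 9.12 and Chmp1b 8.94, and Chmp1a held 1.37, the lowest. The median was 5.07 over 14661 coding genes with a 3′UTR of at least 100 bases, a limit that Chmp2a does not meet. Within the last 100 bases, only Chmp2a, with its whole 3′UTR in that stretch, and Chmp5 of the 9 genes held a TGTA, compared with 54.1% of those coding genes. In the last 50 bases of the annotated transcript, 8 of the 9 genes held AATAAA or ATTAAA, the poly(A) signal, compared with 78.6% of the coding genes, and Chmp1b held neither. Both motifs were searched on the mRNA strand, and a match is a description of these letters and not of binding or use.

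The windows of 30 bases around the TGTA nearest to the end of the transcript read are shown because this is the motif read by the deleted protein. Each is written 5′ to 3′ on the mRNA strand, read from the GENCODE M21 transcripts, with TGTA in capitals. The sequence of Chmp1b is not shown here, and its 16 TGTA are given above as a count. The windows of Chmp2a and Chmp5 lie 25 and 45 bases from the end of the transcript, and those of Chmp6 and Chmp2b 104 and 145 bases from it. In Chmp4b, Chmp3, Chmp7 and Chmp1a the last TGTA lies 277, 285, 299 and 371 bases from the end.
Chmp1a: tcccagccctctcTGTAggctgagcagtgc
Chmp2a: catcctgtcccccTGTAataaagaaatttg
Chmp2b: gaactttgaattgTGTAatatacacattaa
Chmp3: tacttgccttctcTGTAtcttgtttgaaaa
Chmp4b: tgtctgtcacctgTGTActggccccatgtc
Chmp5: tcttgatatttaaTGTAtaggacatttatt
Chmp6: acaaagggtcttaTGTAcccttagggccta
Chmp7: tgactccaggaacTGTAggacaggcagaag
They map to chr8:123204618-123204647 (Chmp1a, minus strand), chr7:13032022-13032051 (Chmp2a, minus), chr16:65539256-65539285 (Chmp2b, minus), chr6:71581282-71581311 (Chmp3, plus), chr2:154694496-154694525 (Chmp4b, plus), chr4:40965246-40965275 (Chmp5, plus), chr11:119919432-119919461 (Chmp6, plus) and chr14:69717282-69717311 (Chmp7, minus), all in the 3′UTR.

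All 9 genes were expressed in BMDMs, and their order was led by the same gene in each sample. Chmp4b, whose protein is the bulk of the ESCRT-III filament, ranked first of the 9 in all 8 samples. Its coverage was 5259 and 4528 in WT and 5499 and 6172 in Nudt21-cKO at 0 h. At 4 h the WT samples had 10677 and 9497 and the knockout samples 13019 and 13928. Chmp7, whose protein starts assembly at the nuclear envelope, ranked 8th in all 8 samples, and Chmp6, whose protein links ESCRT-II to the filament, ranked 9th. Coverage of Chmp6 was 407 and 462 in WT and 513 and 556 in Nudt21-cKO at 0 h. At 4 h the WT samples had 159.6 and 173 and the knockout samples 225 and 213. Among all 21080 symbols in a sample, Chmp4b stood at percentile 97.8 to 99.1 and Chmp6 at percentile 72.2 to 77.2. The remaining genes lay between them, and several neighbors in the order did not separate. At 0 h in WT, Chmp1a had 1883 ± 185 (SD, n = 2), Chmp5 1716 ± 92.3 (SD, n = 2) and Chmp3 2025 ± 18.6 (SD, n = 2), and the samples of Chmp1a overlapped those of the other two genes. Coverage summed over all symbols was 14950347 to 17954882 reads per base in a sample, of which the 9 genes took 0.103% to 0.128%. Coverage is per base, so levels of different genes were set side by side, within the limits of the annotated transcript ends and of the pseudogene matches of Chmp1a, Chmp2a and Chmp3 given at the end.

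**Figure D1:**
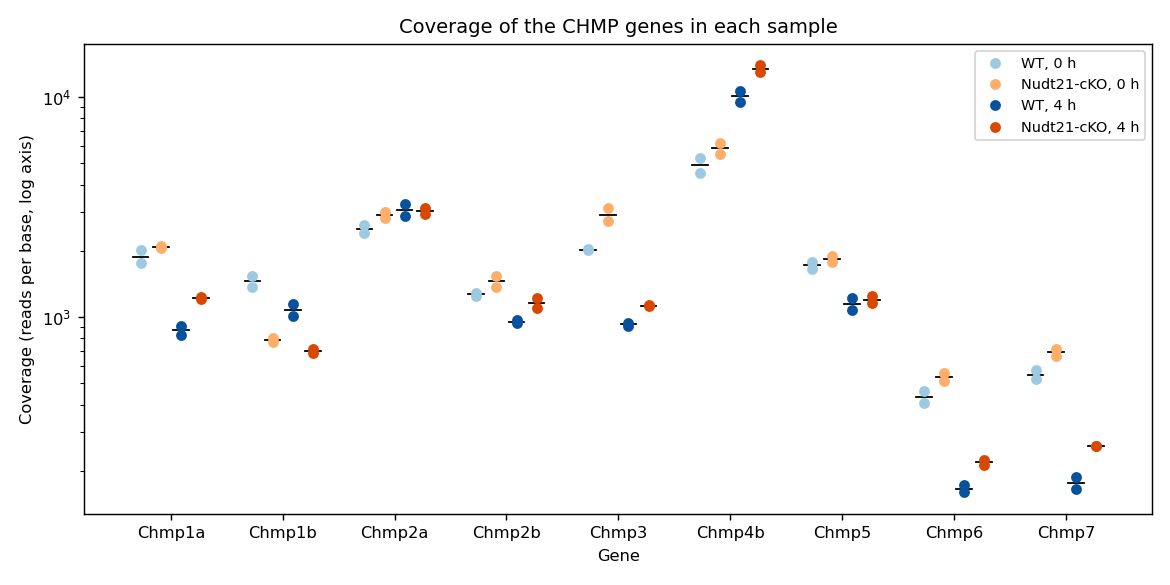
Coverage of the 9 CHMP genes in each of the 8 samples, on a log axis. Points are samples, colors are the 4 groups and short black lines are group means. Chmp4b is the highest gene in every sample and increases at 4 h, Chmp6 and Chmp7 are the lowest, and Chmp1b is the gene with lower values in Nudt21-cKO at both times.

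The comparison of genotypes asks which genes depend on Nudt21 in BMDMs. Coverage as deposited carries no scaling between samples. At 4 h the median of all genes was higher by 0.31 (log2) in Nudt21-cKO than in WT, and at 0 h by 0.10. Each sample was therefore centered on its median log2 value, and differences between genotypes are relative to that median unless stated. A gene was called when its fold change exceeded 1.5 with an unadjusted limma p under 0.05. Both thresholds are those of the study, while the test and the centering were chosen here. The design has 2 samples against 2, so an exact permutation test of a single gene could not go below p = 0.333, and p-values from limma measure the spread between these pooled samples.

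Chmp1b, a late-acting subunit that can form filaments together with IST1, was the gene with lower coverage in Nudt21-cKO. At 0 h its coverage was 1544 and 1367 in WT and 769 and 804 in Nudt21-cKO. At 4 h it was 1011 and 1144 in WT and 688 and 713 in Nudt21-cKO. Both knockout samples were below both WT samples at each time, on the deposited and on the centered scale. After centering, 58.7% of all genes at 0 h and 64% at 4 h had no overlap between genotypes, in either direction. Separation of 2 samples from 2 was thus common, and it is given here and below as a description. The centered log2 fold change was −0.98 (SE 0.11) at 0 h and −0.96 (SE 0.10) at 4 h, which is 0.508-fold and 0.516-fold of WT. The limma p was 0.00262 at 0 h and 0.00235 at 4 h before adjustment. The Benjamini-Hochberg adjusted limma p over all genes tested was 0.0851 at 0 h and 0.0696 at 4 h. Over the alternatives the adjusted limma p (Benjamini-Hochberg) ranged from 0.00445 to 0.349 at 0 h and from 0.00432 to 0.389 at 4 h. It was under 0.05 at both times in 2 of them, with all 8 samples in the fit (0.0139 and 0.00898) and with a variance that follows the expression level, and in no other. On the deposited scale the log2 fold change was −0.89 at 0 h and −0.62 at 4 h, and the call held there as well. The call at an unadjusted p also held when each sample was left out in turn. By position among all log2 fold changes, Chmp1b was at percentile 9.14 at 0 h and percentile 10.05 at 4 h, so about 1 gene in 10 had a lower value.

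The lower coverage of Chmp1b was also visible without any scaling between samples. Coverage averages over the annotated transcript, and in Chmp1b 1789 of its 2524 bases are 3′UTR. The values below therefore also depend on where the transcript ends, and the part of 3′UTR length in them was not tested. Within a sample, Chmp1b took 8.997% and 8.38% of the summed coverage of the 9 genes in WT at 0 h and 4.22% and 4.04% in Nudt21-cKO. At 4 h it took 5.27% and 6.44% in WT and 3.17% and 3.09% in Nudt21-cKO. These shares did not overlap between genotypes at either time. Chmp1a, the paralog with which Chmp1b shares its place in the complex, gave another internal reference. The ratio of Chmp1b to Chmp1a was 0.881 and 0.679 in WT and 0.372 and 0.383 in Nudt21-cKO at 0 h. At 4 h the ratio was 1.22 and 1.25 in WT and 0.567 and 0.577 in Nudt21-cKO. In the order of the 9 genes, Chmp1b was 6th in both WT samples at 0 h and 7th in both knockout samples, and at 4 h it was 4th and 3rd in WT and 7th in both knockout samples.

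Chmp1b differs from the other 8 genes in structure. Its annotated transcript has 1 exon, whereas the transcripts of the others have 5 to 10. It lies on the plus strand of chromosome 18, from 67205366 to 67207889 (GRCm38), wholly inside an intron of each of the 3 Gnal transcripts that span it, on the same strand. Gnal, which encodes a G protein alpha subunit, had a coverage of 9.14 and 11.9 in WT and 50.9 and 63.2 in Nudt21-cKO at 0 h. At 4 h Gnal had 1.04 and 2.52 in WT and 14.4 and 18.1 in Nudt21-cKO. Gnal was thus higher in each knockout sample, opposite to Chmp1b, with a log2 fold change of 2.34 at 0 h and 2.90 at 4 h (limma, Benjamini-Hochberg adjusted p = 0.0681 and 0.0837). An antisense gene, AC140336.1, which has no row of that name in the tables, covers the first 605 bases of the Chmp1b transcript. The library kit is not stated to keep strand, so reads of Chmp1b and of that antisense gene cannot be told apart, and the part of either neighbor in the Chmp1b values was not tested.

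**Figure D2:**
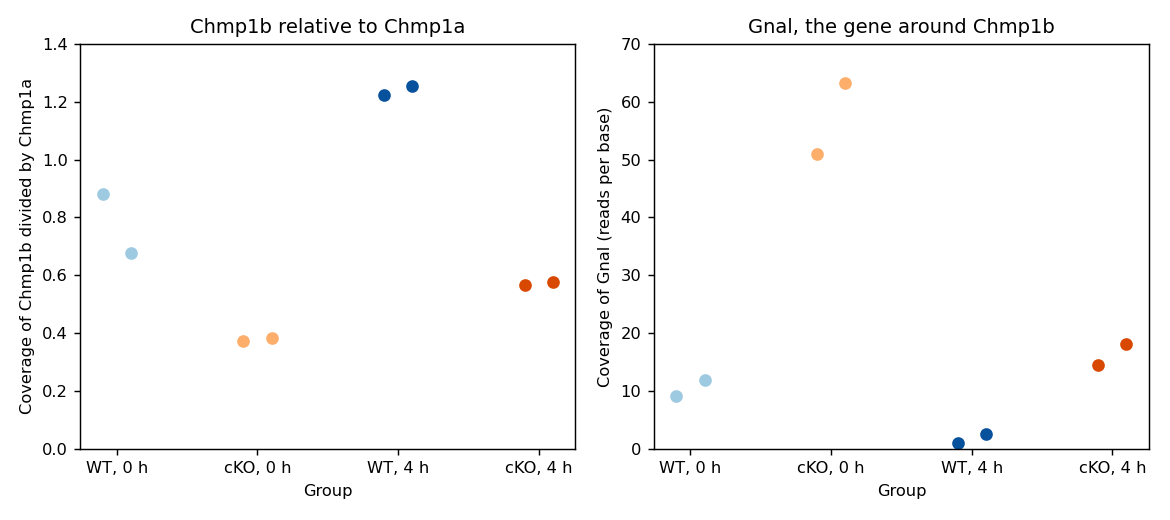
Left, coverage of Chmp1b divided by that of Chmp1a in each sample, and right, coverage of Gnal, whose intron holds Chmp1b, with both axes from 0. Points are samples and colors are the groups. The ratio is lower in Nudt21-cKO than in WT at both times (0.372 and 0.383 against 0.881 and 0.679 at 0 h), and Gnal is higher.

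The other 8 genes did not pass the rule at either time. At 4 h, 0 of 9 CHMP genes were called higher, beside 10.4% of 14950 genes tested, and 1 of 9 was called lower, beside 9.9%. At 0 h, 0 of 9 were called higher, beside 7.25% of 16251 genes, and 1 of 9 lower, beside 6.98%. With the adjusted limma p under 0.05 in place of the unadjusted one, 0 of 9 were called at 4 h, beside 1.58% of all genes, and 0 of 9 at 0 h, beside 1.08%. A count of 1 of 9 is near the background, so the family did not stand apart by number of calls. The median log2 fold change of the 9 genes was −0.06 at 4 h and 0.12 at 0 h, beside −0.03 and 0.01 over all genes.

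The filament core gave small differences on the centered scale. Chmp4b had a log2 fold change of 0.16 (95% interval −0.21 to 0.54) at 0 h and 0.08 (−0.52 to 0.69) at 4 h. On the deposited scale both knockout samples were above both WT samples at each time, by a log2 fold change of 0.26 at 0 h and 0.42 at 4 h. Chmp6, the nucleator, had 0.21 (−0.16 to 0.58) at 0 h and 0.06 (−0.29 to 0.41) at 4 h. Chmp7, which works with the nuclear membrane protein LEMD2, had a coverage of 521 and 575 in WT and 668 and 718 in Nudt21-cKO at 0 h, and 165 and 188 against 258 and 260.2 at 4 h. Every knockout sample of Chmp7 was above the WT samples of its time, and the centered log2 fold change was 0.25 (−0.08 to 0.58) at 0 h and 0.22 (−0.09 to 0.54) at 4 h. On the deposited scale at 4 h, Chmp7 had 0.56, a fold of 1.47 just under the threshold. None of these genes passed the rule on either scale. As deposited at 4 h, the unadjusted limma p was 0.0184 for Chmp7, 0.0361 for Chmp6 and 0.0412 for Chmp4b, with folds under 1.5. The Benjamini-Hochberg adjusted limma p there was 0.0903, 0.122 and 0.130. The centered intervals allow changes past the 1.5-fold threshold in Chmp4b at 4 h.

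Chmp3, which joins CHMP2A in capping the filament, came nearest to the rule among the genes with higher values on the centered scale. At 0 h its coverage was 2039 and 2012 in WT and 2719.9 and 3118 in Nudt21-cKO, so both knockout samples were above both WT samples. The centered log2 fold change was 0.43 (SE 0.09), a fold of 1.35 that stays under the threshold, with a limma p of 0.0170 and a Benjamini-Hochberg adjusted p of 0.145. At 4 h coverage was 912 and 942 in WT and 1117 and 1134 in Nudt21-cKO, and the centered value was −0.06 (95% interval −0.44 to 0.33), beside 0.28 on the deposited scale.

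The other cap subunits, Chmp2a and Chmp2b, recruit VPS4, and CHMP2A is required to close autophagosomes. Chmp2a had a coverage of 2608 and 2417 in WT and 2819.7 and 3009 in Nudt21-cKO at 0 h, with a log2 fold change of 0.12 (95% interval −0.16 to 0.41). At 4 h it had 3258 and 2882 in WT and 2941 and 3115 in Nudt21-cKO, and these samples overlapped, while the centered value was −0.35 (−0.96 to 0.25). Chmp2b, in which mutations cause a form of frontotemporal dementia, had 1247 and 1289.9 in WT and 1366 and 1536 in Nudt21-cKO at 0 h. At 4 h Chmp2b had 967 and 941 in WT and 1095 and 1216 in Nudt21-cKO, and the log2 fold change was 0.10 (−0.19 to 0.38) at 0 h and −0.06 (−0.56 to 0.44) at 4 h. Chmp1a, the paralog of Chmp1b, had 1752 and 2015 in WT and 2067 and 2101 in Nudt21-cKO at 0 h, and 826 and 913 against 1214 and 1236 at 4 h. Its centered log2 fold change was 0.06 (−0.34 to 0.46) at 0 h and 0.16 (−0.17 to 0.49) at 4 h, beside 0.50 at 4 h on the deposited scale. Chmp5, which binds the VPS4 cofactor VTA1, had 0.01 (−0.28 to 0.29) at 0 h and −0.27 (−0.89 to 0.35) at 4 h. Its value at 4 h was −0.060 without WT sample 1 and −0.48 without WT sample 2.

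**Figure D3:**
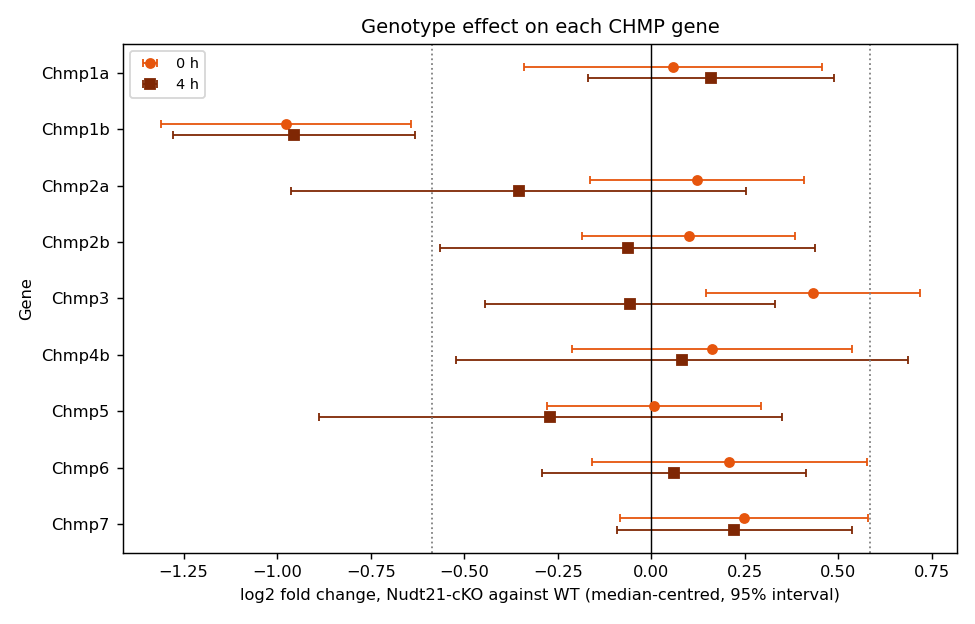
Centered log2 fold change of Nudt21-cKO against WT for each CHMP gene at 0 h (circles) and 4 h (squares), with 95% intervals from limma. Dotted lines mark the 1.5-fold threshold. Chmp1b is the gene whose estimates lie below the lower line at both times, and the estimates of the other 8 genes lie between the lines.

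Whether the genotype difference changed with stimulation was tested as an interaction over the 8 samples. By limma with Benjamini-Hochberg adjusted p under 0.05, 0 of 9 genes passed, beside 2.12% of 16284 genes tested, and 1 of 9, Chmp3, had an unadjusted p under 0.05, beside 21.6%. For Chmp1b the difference between the times was 0.00 (95% interval −0.36 to 0.36). For Chmp3 it was −0.51 (limma, Benjamini-Hochberg adjusted p = 0.143), and for Chmp2a −0.50 (adjusted p = 0.283). With a variance that follows the expression level, Chmp3 passed at an adjusted limma p of 0.0497, as did 7.11% of all genes.

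Stimulation asks how IFNγ/LPS acts on the genes within a genotype, and here the direction of 6 of the 9 genes in WT and of 4 in Nudt21-cKO turned with the scale. From 0 h to 4 h the median log2 coverage of all genes as deposited moved by −1.27 in WT and by −1.05 in Nudt21-cKO, while the ratio of total coverage was −0.05 and 0.04 (log2). Centering on the median thus added more than 1 log2 unit to each gene. For genes covered at 500 or more on average, the range of most CHMP genes, the median moved by −0.53 and −0.43. Values are therefore given on both scales.

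Chmp4b was the CHMP gene called higher in both genotypes on both scales. In WT its coverage went from 4894 ± 516 (SD, n = 2) to 10087 ± 834 (SD, n = 2), a log2 fold change of 1.05 as deposited and 2.50 (SE 0.22) after centering (limma, Benjamini-Hochberg adjusted p = 0.0146 and 0.00681). In Nudt21-cKO it went from 5836 ± 476 (SD, n = 2) to 13474 ± 643 (SD, n = 2), with 1.21 as deposited and 2.41 (SE 0.09) after centering (limma, adjusted p = 0.00479 and 0.00161). Each stimulated sample was above each unstimulated one. After centering, 79.7% of all genes in WT and 83.9% in Nudt21-cKO had no overlap between the times, in either direction. Chmp4b took 27.8% to 31.0% of the summed coverage of the 9 genes at 0 h, a share that needs no scaling. At 4 h it took 55.6% and 53.5% in WT and 60.0% and 60.4% in Nudt21-cKO. Relative to Chmp2a in the same sample, Chmp4b was at 1.87 to 2.05 at 0 h. At 4 h this ratio was 3.28 and 3.30 in WT and 4.43 and 4.47 in Nudt21-cKO.

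**Figure D4:**
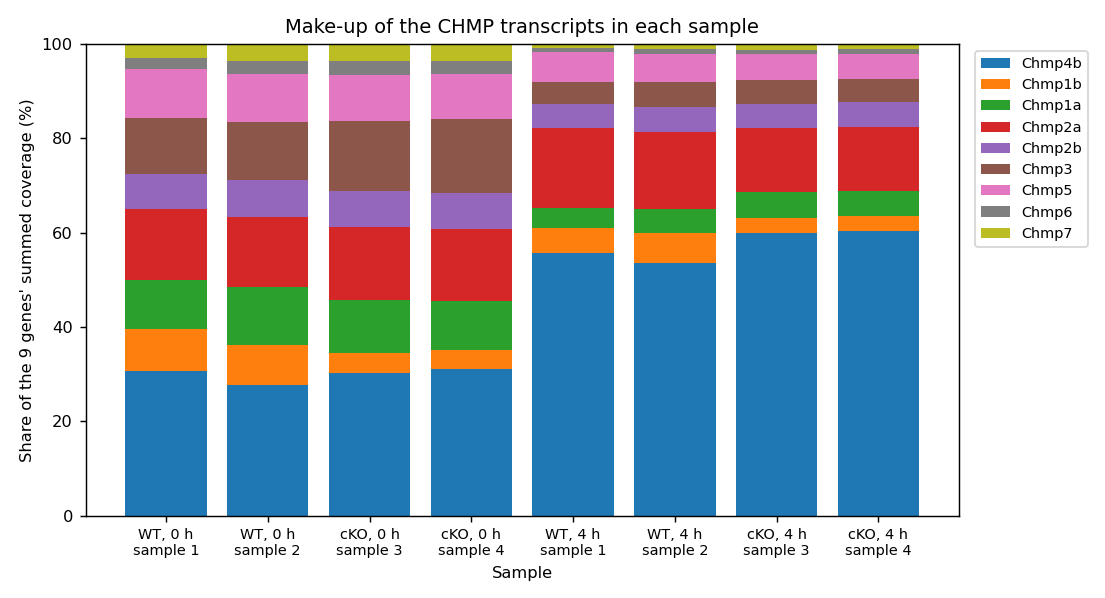
Share of each CHMP gene in the summed coverage of the 9 genes, 1 bar for each sample, adding to 100%. Chmp4b fills 27.8% to 31.0% of the bars at 0 h and 53.5% to 60.4% at 4 h, and the Chmp1b band is narrower in Nudt21-cKO than in WT at both times.

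The calls of the remaining genes depended on the scale. After centering, 5 of 9 genes were called higher in WT, beside 33.5% of 16002 genes, and 0 of 9 lower, beside 22.4%. With the adjusted p in place of the unadjusted one, 5 of 9 were called, beside 50.3%. As deposited, 1 of 9 was called higher, beside 11.9%, and 4 of 9 lower, beside 55.1%. In Nudt21-cKO, 5 of 9 were called higher after centering, beside 32.7% of 16223 genes, 0 of 9 lower, beside 23.2%, and 5 of 9 with the adjusted p, beside 53.1%. As deposited, 1 of 9 was called higher in Nudt21-cKO, beside 13.7%, and 5 of 9 lower, beside 53.2%.

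Chmp7, Chmp6, Chmp3 and Chmp1a were called lower as deposited in both genotypes and were not called after centering. In WT the deposited log2 fold change was −1.64 for Chmp7, −1.38 for Chmp6, −1.13 for Chmp3 and −1.11 for Chmp1a, whereas the centered values were −0.19, 0.07, 0.32 and 0.34. In Nudt21-cKO the deposited values were −1.42, −1.29, −1.37 and −0.77, and the centered ones were −0.21, −0.08, −0.17 and 0.44. As a share of the 9 genes, Chmp3 went from 11.9% to 15.7% at 0 h to 4.75% to 5.31% at 4 h, and Chmp7 from 3.04% to 3.67% to 0.859% to 1.19%. The shares of these genes at 4 h lay below all of their shares at 0 h.

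Chmp2a, Chmp1b, Chmp2b and Chmp5 were called higher after centering in both genotypes and not as deposited. Chmp5 in Nudt21-cKO lay at the threshold, with 0.587 against 0.585 (log2 of 1.5). Without each sample in turn it ranged from 0.517 to 0.657 in Nudt21-cKO and from 0.663 to 1.08 in WT. The centered log2 fold changes in WT were 1.74, 1.02, 1.04 and 0.87, and the deposited ones 0.29, −0.43, −0.41 and −0.58. In Nudt21-cKO the centered values were 1.26, 1.04, 0.88 and 0.59, and the deposited ones 0.06, −0.17, −0.33 and −0.62, the last of which was called lower. Coverage of Chmp5 was 1782 and 1651 in WT and 1786 and 1889.7 in Nudt21-cKO at 0 h. At 4 h the WT samples had 1218 and 1074 and the knockout samples 1156 and 1242. Each stimulated sample of Chmp5 was therefore below each unstimulated one in reads per base, while its position against the median was higher.

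**Figure D5:**
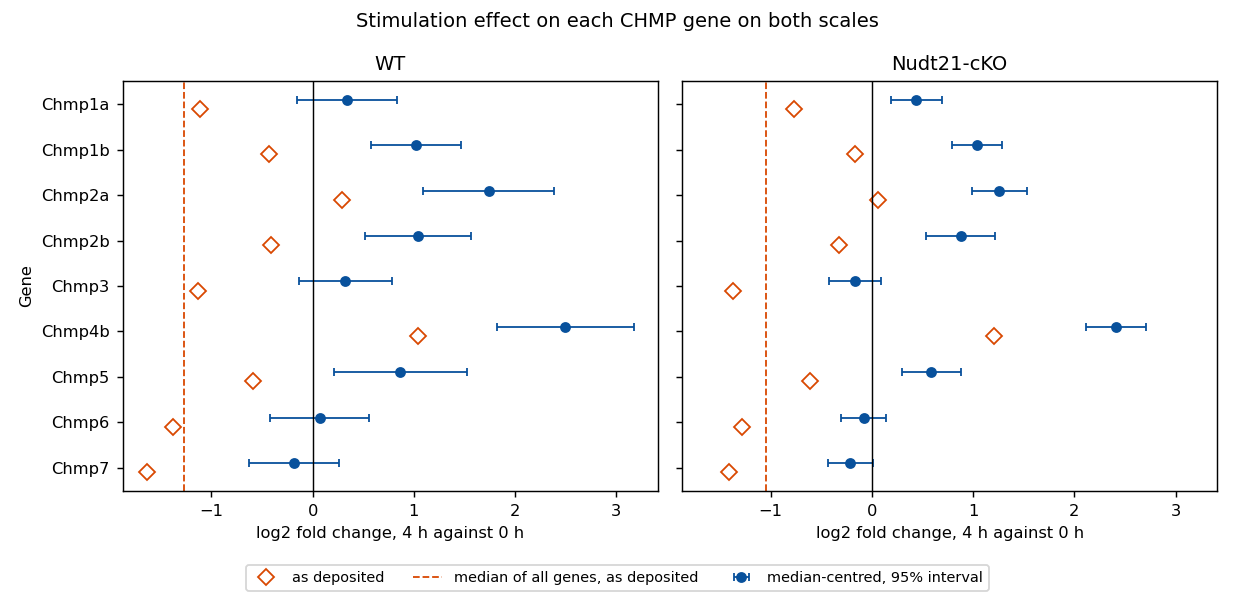
Log2 fold change of 4 h against 0 h for each CHMP gene in WT (left) and Nudt21-cKO (right). Filled circles are centered values with 95% limma intervals, open diamonds are values as deposited and the dashed line is the median of all genes as deposited (−1.27 and −1.05). Chmp4b is the gene well above 0 on both scales.

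The genes that act before, with or after ESCRT-III were read from a list of 30. On the centered scale at 4 h, 3 of them were called higher in Nudt21-cKO and 2 lower, beside 10.4% and 9.9% of all genes, so the list was at or below that share. The 3 were the ESCRT-0 gene Stam2 (log2 fold change 1.19), the ESCRT-II gene Vps36 (0.65) and the ESCRT-I gene Mvb12b (0.60), and their calls held as deposited. The 2 were Stam (−0.82) and the ESCRT-I gene Vps37a (−0.73), whose calls did not hold as deposited (−0.48 and −0.39). On the deposited scale 6 of 30 were called higher and 0 lower, beside 20.8% and 4.17% of all genes.

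After centering, 0 of 30 had an adjusted limma p under 0.05 at 4 h. At 0 h, 1 of 30 was called higher on either scale, Stam2, and 0 lower, beside 7.25% and 6.98% after centering. Stam2 had a coverage of 676 and 665 in WT and 2042 and 2265 in Nudt21-cKO at 0 h (log2 fold change 1.59, limma, Benjamini-Hochberg adjusted p = 0.0408). Among the 12 ESCRT-III partners, which include the VPS4 genes that end each cycle of assembly, calls at 4 h depended on the scale. None was called after centering, and 3 were called higher as deposited, namely Lemd2 (0.72), Cc2d1b (0.71) and Ptpn23 (0.64), beside 20.8% of all genes called higher on that scale. At 0 h none of the 12 was called on either scale.

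With stimulation the list of 30 turned with the scale, as the CHMP genes did. In WT 15 were called higher and 1 lower after centering, beside 33.5% and 22.4% of all genes, and 2 higher and 16 lower as deposited, beside 11.9% and 55.1%. In Nudt21-cKO 13 were called higher and 2 lower after centering, beside 32.7% and 23.2%, and 1 higher and 14 lower as deposited, beside 13.7% and 53.2%.

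Marker genes were compared between genotypes by the same rule, beside shares over all genes of 7.25% higher and 6.98% lower at 0 h and 10.4% and 9.9% at 4 h. Of the 8 macrophage markers, 1 was called higher and 4 lower in Nudt21-cKO at 0 h, and 1 higher and 2 lower at 4 h. As deposited, the counts were 1 and 3 at 0 h and 2 and 0 at 4 h, where the shares over all genes were 8.99% and 5.61% at 0 h and 20.8% and 4.17% at 4 h. The summed coverage of these markers was 124575 and 132779 in WT and 125425 and 134181 in Nudt21-cKO at 0 h. At 4 h it was 50877 and 55634 in WT and 62229 and 65253 in Nudt21-cKO. The markers of neutrophils and their precursors summed to 6139 and 8040.3 in WT and 7540.3 and 9678 in Nudt21-cKO at 0 h, and to 3392 and 4751 against 5922 and 6236 at 4 h. At 0 h, 0 of these 8 were called higher and 1 lower in Nudt21-cKO, and at 4 h 0 higher and 2 lower, or 1 and 1 as deposited. Among 5 stromal markers the rule gave 2 higher and 0 lower at 0 h, and 0 in either direction at 4 h, where 1 was called higher as deposited. Of 5 dendritic cell markers, 1 was called higher and 1 lower at 4 h on either scale, and 0 of the 4 tested at 0 h. Of 3 erythroid markers tested at 0 h, 1 was called lower on either scale, and 0 of the 2 tested at 4 h. The lists of T, B and NK cells and of mast cells and basophils had 0 calls. The part of all these cells in the values of the CHMP genes was not tested.

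The genes whose centered values were most like Chmp1b over the 8 samples, of 16275 compared, were Cmtm3, Cd72 and Gm21887, with Pearson r of 0.995, 0.995 and 0.994. Those most like Chmp4b were Ltv1, Sav1 and Dusp5, with r of 0.999 each. These 8 points share 4 groups and the shift of the median with stimulation, so the values are a description. Cd72, a receptor of the C-type lectin family, had a coverage of 2646 and 2502 in WT and 880.3 and 892 in Nudt21-cKO at 0 h, and 3103 and 3490.3 against 1579.6 and 1395 at 4 h, lower in each knockout sample.

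Overlapping and similar transcripts were sought for all 9 genes in the annotation. On the opposite strand, Gm20388 and Rps12-ps9 overlap Chmp1a and have no row of that name in the tables, and the antisense gene 1700040L08Rik overlaps the start of Chmp3, with a coverage of 0 to 8.16 in the 8 samples. The Chmp1a transcript matched the pseudogene Gm8515 over 584 bases at 95.9% identity, and Chmp2a matched Gm8185 over 669 bases at 94.0%. Chmp3 matched AC115302.1 over 672 bases at 95.5% and Gm8009 over 432 bases at 94.7%. None of the 4 has a row of that name in the tables, and reads shared with them make the levels of Chmp1a, Chmp2a and Chmp3 uncertain to that extent. Chmp1b matched AC140336.1, the antisense gene described above, and no other gene at these lengths, and Chmp2b, Chmp4b, Chmp5, Chmp6 and Chmp7 had no match of at least 300 bases at 90% identity.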

How the data were processed

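RNA-seq of 8 BMDM samples was deposited as 2 tables of gene coverage. The deposited signal is coverage, mean reads per base, made by the authors with HISAT2 2.2.1 and StringTie 2.1.7 on mm10 (GRCm38) according to their processing notes. It is not scaled between samples and averages over the transcript, so it also depends on where a transcript is taken to end. Whole read counts could not be recovered, so no count model or counting interval was used. Coverage summed over genes was 14950347 to 17954882 per sample. The authors' own fold change, p-value and call columns were not used. Here log2(coverage + 0.1) of genes with a mean of at least 0.5 was centered on each sample's median and tested with limma 3.58.1 in R 4.3.3, with Benjamini-Hochberg adjustment over all genes tested, after the script was checked on simulated data. Fold changes are on that log2 scale. All 9 genes, Nudt21, listed ESCRT genes called at 4 h, overlapping or similar transcripts (blastn 2.17.0) and the 3 genes most like the members with the largest genotype and stimulation effects were named by rule, while Lemd2, Cc2d1b and Ptpn23, called on the deposited scale alone, and the values of Cd72 were added after they were seen. The genes and lists were chosen with earlier results of these data known. Positions come from GENCODE M21.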

Additional observations from a re-analysis of the deposited data

Results flagged for a closer look

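For Chmp2a, the centered values of both knockout samples lay above the WT samples at 0 h and below them at 4 h, a change of the genotype difference by −0.50 (log2, 4 h minus 0 h). The interaction term did not pass (limma, Benjamini-Hochberg adjusted p = 0.283), and on the deposited scale the samples of the 2 genotypes overlapped at 4 h and the change was −0.23. The change ranged from −0.71 without WT sample 2 at 4 h to −0.29 without WT sample 1 at 4 h, and the genotype value at 4 h from −0.56 to −0.15 without the same samples.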

How the results depend on the processing

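Chmp1b stayed lower in Nudt21-cKO and past the unadjusted rule under every alternative run except the adjusted p, under which 0 of 9 genes were called lower at 4 h and at 0 h. Without each sample in turn its log2 fold change ranged from −0.98 to −0.93 at 4 h and from −1.06 to −0.90 at 0 h. Its adjusted p passed 0.05 at both times with all 8 samples in the fit and with a variance that follows the expression level. The adjusted limma p of Chmp1b at 4 h ranged from 0.00432 with a variance that follows the expression level to 0.389 without Nudt21-cKO sample 4, where the lone remaining sample is assumed to vary like WT. Scaling moved the split of calls over all genes, from 1552 higher and 1480 lower at 4 h to 3112 and 624 as deposited. Of the values of single genes under all alternatives, 369 kept direction and side of the threshold and 62 changed sign. The cause was not tested.

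As deposited, the genotype values at 4 h became 0.27 (Chmp2b), 0.28 (Chmp3) and 0.067 (Chmp5). With quantile normalization those of Chmp2b and Chmp3 became 0.0069 and 0.017, with equal total coverage 0.063 and 0.068, and with the median of genes at a coverage of at least 500, chosen after seeing the data, 0.017 and 0.023. At 0 h Chmp5 became −0.028, −0.023 and −0.017 under the latter 3 scalings.

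For stimulation in WT, the genes called higher and lower were 1 and 4 as deposited, 1 and 3 with quantile normalization (22.2% and 28.8% of all genes), 1 and 4 with equal totals (12.3% and 53.6%) and 2 and 4 with the median of high genes (14.6% and 47.0%). In the same order of scalings, Chmp1a became −1.11, −0.87, −1.06 and −0.78, Chmp1b −0.43, −0.17, −0.38 and −0.10, and Chmp2b −0.41, −0.078, −0.36 and −0.080. Chmp3 became −1.13, −0.91, −1.08 and −0.80, Chmp5 −0.58, −0.38, −0.53 and −0.25, and Chmp6 −1.38, −0.32, −1.33 and −1.05. In Nudt21-cKO the counts were 1 and 5, 1 and 3 (22.1% and 30.8%), 1 and 5 (13.3% and 53.9%), and 1 and 3 (15.8% and 46.5%). Chmp1a became −0.77, −0.70, −0.80 and −0.53, Chmp2b −0.33, −0.15, −0.37 and −0.094, and Chmp5 −0.62, −0.51, −0.66 and −0.38. Chmp1b became −0.17 as deposited and −0.21 with equal totals, Chmp2a −0.10 with quantile normalization, and Chmp6 0.038 without the filter.

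The change of the genotype difference between the times reversed for Chmp4b to 0.16, 0.14, 0.075 and 0.019 under the 4 scalings. As deposited, Chmp2b became 0.082, Chmp6 0.10 and Chmp7 0.22. With equal totals Chmp6 became 0.0071 and Chmp7 0.13, and with the median of high genes Chmp7 became 0.076. With a variance that follows the expression level, 1 gene, Chmp3, passed, beside 7.11% of all genes.

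Leaving out each sample in turn gave 3 to 5 genes called higher with stimulation in WT, the lowest without WT sample 1 at 0 h, and 4 to 5 in Nudt21-cKO. Values that changed sign ranged from −0.20 to 0.076 (Chmp2b), −0.15 to 0.038 (Chmp3) and −0.12 to 0.29 (Chmp4b) for genotype at 4 h, from −0.056 to 0.17 (Chmp1a) and −0.038 to 0.050 (Chmp5) at 0 h, and from −0.048 to 0.15 (Chmp6) for stimulation in WT. For the change of the genotype difference they ranged from −0.070 to 0.086 (Chmp1b), −0.022 to 0.20 (Chmp1a), −0.31 to 0.10 (Chmp4b) and −0.12 to 0.042 (Chmp7).

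The labels number samples alike at both times. Deviations of same-numbered samples correlated at 0.158 in WT and 0.0975 in Nudt21-cKO over 8628 genes, from 2 pairs each. This cannot show whether same-numbered samples came from the same pools of mice. The main tests took the 8 samples as independent, which is an assumption. With the replicate number as a block, 5 of 9 genes were called higher and 0 lower in either genotype, Chmp4b had 2.50 and 2.41, and calls over all genes were 5117 higher and 3415 lower in WT and 5239 and 3629 in Nudt21-cKO. Since the values are coverage, the count tests that had been listed were left out. Read counts are unknown, so no counting error can be given, and 2 samples a group limit the precision of each value.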
